A study of Mus musculus with 8 samples.

Results

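The nuclear genes for the respiratory chain and ATP synthase were followed in whole spines of mice with proteoglycan-induced spondylitis (PGISp) and of control mice. Members were all probes whose platform symbol began with Nduf followed by a, b, c, s or v, with Uqcr, with Cox4 to Cox8 or with Atp5, or was Cyc1 or an Sdh subunit gene. This rule, chosen with earlier results of these data known, found 108 of 25695 probes, which stood for 86 of 16593 gene symbols. Of the 86 genes, 79 encode subunits of complexes I to V, and 7 do not: the complex I assembly factors Ndufaf1, Ndufaf3, Ndufaf4, Ndufaf5 and Ndufaf7, the supercomplex factor Cox7a2l, and Ndufs5-ps, which is listed as a pseudogene.

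PGISp is a mouse model of ankylosing spondylitis in which immunisation with human cartilage proteoglycan (PG) gives arthritis of the limbs and spine. All 8 mice were BALB/c with an IL4 knockout, the controls included. The 4 PGISp mice were females. From 3 months of age they received, on days 0, 21 and 42, injections of 2 mg of PG extract, holding 100 µg of PG core protein, and 2 mg of the adjuvant dimethyl dioctadecyl ammonium bromide. They were chosen for severe arthritis of the limbs, because scoring of the spine itself was not possible before RNA extraction. The 4 control mice had not been given PG extract, and their sex is not stated separately in the sources used here. Spines were taken at week 12, and each array (MouseRef-8, with gene probes on beads) received the amplified product of 500 ng of RNA from 1 spine. Each spine is called by its place on the BeadChip, A, C, E or G for PGISp and B, D, F or H for control.

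In mitochondria, electrons from NADH and succinate pass through complexes I and II to ubiquinone, through complex III to cytochrome c, and through complex IV (cytochrome c oxidase) to oxygen. Complexes I, III and IV pump protons, and complex V (ATP synthase) uses the proton gradient to make ATP. Skeletal muscle and brown fat are rich in these complexes, and some complex IV subunits exist as a form made in most tissues and a form made mainly in heart and skeletal muscle. A whole spine holds bone, marrow, cartilage, discs and the muscle and fat attached to it, so that fewer cells of a type and less RNA per cell cannot be told apart in these samples.

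Values are the deposited log2 values, which the authors had already transformed and normalised. Background on the arrays lay between 6.73 and 6.80, set at the 95th percentile of 1305 probes for olfactory and vomeronasal receptors, and 11942 to 14114 probes on the PGISp arrays and 13043 to 13835 on the control arrays lay above it. Probes with a mean value above 6.77 were tested, the brightest probe stood for a gene, and 9609 genes remained, 79 of them members. The 7 members below this limit were Ndufs1, Uqcrfs1, Uqcrq, Cox4i2, Cox7b2, Cox8c and Atp5k. Groups were compared with limma, and a gene was called at a Benjamini-Hochberg adjusted p under 0.1 over all 9609 genes. The p-values measure the spread among these 8 spines, and their precision is limited by the number of arrays. The Y-linked gene Eif2s3y stood at 6.61, 6.49, 6.65 and 6.54 on PGISp A, C, E and G, against 8.57, 6.91, 8.33 and 6.63 on control B, D, F and H. Kdm5d, also Y-linked, was at 6.57 to 6.63 on the PGISp arrays, against 6.98, 6.68, 6.90 and 6.58 on control B, D, F and H. Xist, which is made from the inactive X of females, was at 8.37, 7.76, 7.85 and 7.40 on PGISp A, C, E and G, against 6.62, 7.37, 6.85 and 7.89 on control B, D, F and H. Uty, a further Y-linked gene, lay near background, at 6.61 to 6.84 on the PGISp arrays and 6.75 to 6.83 on the control arrays. It did not set control B and F apart. In Eif2s3y, Kdm5d and Xist, control B and F stood apart from the other 6 arrays, with the pattern of male mice, whereas all PGISp mice were females. Control D, at 6.91 in Eif2s3y, was above all PGISp arrays and below control B and F. If control B and F were males, a difference between the groups is in part one between female mice and a mixed control group. The part of sex in the results was not tested. The main counts and most medians of the members and of the gene lists are given with all arrays and without control B and F. Counts by signal level and by promoter are given with all arrays only.

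Where genes of the respiratory chain and ATP synthase differed between the groups, they were lower in PGISp spines. Of the 79 genes tested, 24 were called lower and 0 were called higher, while 55 were not called. The share called lower was 30.4% of the members, against 4.56% of all 9609 genes, while 6.25% of all genes were called higher. At an unadjusted limma p under 0.05, 44 members were lower and 0 were higher, while 10.9% of all genes were lower. The log2 difference, PGISp minus control, was below 0 for 75 of the 79 members, with a median of -0.25 and a range of -0.83 to 0.10, whereas the median of all genes tested was near 0 and 51.5% lay below 0. In 18 members, or 22.8%, every PGISp value lay below every control value, which was so for 5.67% of all genes. Without control B and F, 0 members were called, and 40 genes of the whole table, or 0.416%, were called lower. The differences of 74 members were then still below 0, with a median of -0.23. An unadjusted limma p under 0.05 was reached by 20 members in the lower direction and 0 in the higher, while 6.45% of all genes were lower at that level. The medians of complexes I to V were then -0.25, -0.33, -0.24, -0.22 and -0.23, with 0 genes called in each.

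**Figure D1:**
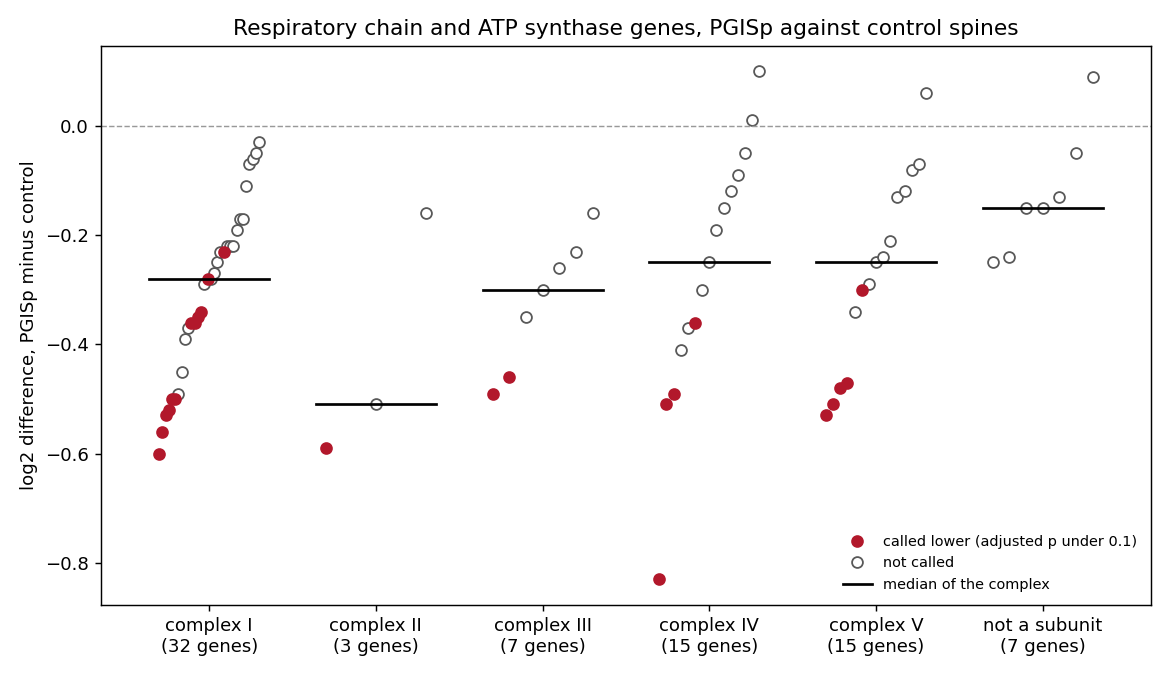
Log2 difference between the mean of 4 PGISp spines and the mean of 4 control spines for each of the 79 genes tested, grouped by complex, with filled points for genes called lower and a line at the median of each group. The medians run from -0.51 in complex II to -0.15 in the genes that are not subunits, and 4 genes lie above 0, none of them called.

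Complex I takes electrons from NADH and is the largest complex of the chain. Of its 33 member genes, 32 were tested, 12 were called lower, and all 32 had a difference below 0, with a median of -0.28. Among the core subunits, which carry the electron path from NADH to ubiquinone, 3 of 5 tested were lower, with a median of -0.36. Among the accessory subunits, which surround that core, 9 of 27 were lower, with a median of -0.27. The difference between core and accessory subunits was not tested. Beside these counts and those of complexes II to V below, 4.56% of all genes tested were called lower.

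Ndufv1, the subunit that binds NADH, had log2 values of 11.20, 11.28, 11.12 and 11.64 on PGISp A, C, E and G, against 11.87, 11.68, 11.87 and 11.81 on control B, D, F and H. The groups did not overlap, and Ndufv1 was 1.41-fold lower in PGISp spines (log2 difference -0.50, SE 0.11, adjusted p = 0.0282). The accessory subunit Ndufa8 had values of 10.07, 10.45, 10.49 and 10.65 on PGISp A, C, E and G, against 11.13, 10.81, 11.23 and 10.89 on control B, D, F and H. Again every PGISp spine lay below every control spine, and the difference of -0.60 (SE 0.13, adjusted p = 0.0282) was the largest fall in complex I. Its second probe gave a difference of -0.48. Ndufb10, in the distal part of the membrane arm, stood at 9.54, 9.04, 9.43 and 9.30 on PGISp A, C, E and G, against 10.13, 9.73, 9.97 and 9.72 on control B, D, F and H. It was 1.47-fold lower (log2 difference -0.56, SE 0.12, adjusted p = 0.0299), again without overlap, but was not called without control F (adjusted p = 0.101).

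Ndufs6, an accessory subunit, was tightly grouped, with a mean of 11.90 ± 0.04 in PGISp spines and 12.12 ± 0.04 in control spines (SD, n = 4 each), so that a small fall of 0.23 (SE 0.05) was called (adjusted p = 0.0385). The core subunits Ndufs8 and Ndufs7, which carry electrons towards ubiquinone, each fell by 0.36 (adjusted p = 0.0519 and 0.0985). The other calls in complex I were Ndufa2, Ndufa5, Ndufa9, Ndufa10, Ndufb5 and Ndufb6, with differences between -0.53 and -0.28. Ndufs6 was called lower in all 8 fits that left out 1 spine. Ndufs8 was not called without PGISp A or C or without control B or F, and Ndufs7 without any 1 of PGISp A, C and E and control B, D and F. Ndufa10 lost its call without PGISp A or without control B or F, and the calls of Ndufa2, Ndufa5, Ndufa9, Ndufb5 and Ndufb6 were each lost in 5 or 6 of the 8 fits, those without PGISp A or C and without control B, F or H among them. Ndufs3, a core subunit of the ubiquinone-reducing module, showed a difference of similar size but was not called (log2 difference -0.49, SE 0.18, adjusted p = 0.147). Its PGISp values spread from 10.05 on PGISp A to 11.10 on PGISp G, whereas its control values lay between 10.88 and 11.16. The smallest differences were those of Ndufb11 (-0.03) and Ndufb4 (-0.05), whose probes were dim, with means of 6.92 and 7.24. Ndufa3, with a bright probe (mean 11.28), differed by -0.06.

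Complex II, succinate dehydrogenase, links the citric acid cycle to the chain. All 3 of its member genes were tested and 1 was called lower, with a median difference of -0.51. Sdha, which the rule also covers, had no probe with values under that symbol, so the median leaves it out. Sdhc, a membrane anchor, had values of 10.69, 10.61, 10.42 and 10.78 on PGISp A, C, E and G, against 11.42, 11.01, 11.33 and 11.11 on control B, D, F and H. The groups did not overlap, and Sdhc was 1.51-fold lower (log2 difference -0.59, SE 0.11, adjusted p = 0.0129). Sdhb, the iron-sulphur subunit, stood at 10.04, 9.71, 10.28 and 10.53 on PGISp A, C, E and G, against 10.76, 10.35, 10.88 and 10.59 on control B, D, F and H. PGISp G lay above control D, and the difference of -0.51 (SE 0.17) was not called (adjusted p = 0.111). When every probe was tested separately, a second Sdhb probe had a difference of -0.53 and an adjusted p of 0.0403. Sdhd, the other anchor, averaged 8.14 ± 0.30 in PGISp spines and 8.31 ± 0.37 in control spines (SD, n = 4 each), and its values overlapped widely.

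Complex III passes electrons from ubiquinol to cytochrome c. Of 9 member genes, 7 were tested, 2 were called lower, and the median difference was -0.30. Uqcrc1, a core protein of the matrix side, had values of 10.59, 10.95, 10.71 and 11.01 on PGISp A, C, E and G, against 11.35, 11.12, 11.48 and 11.26 on control B, D, F and H. It was 1.40-fold lower without overlap (log2 difference -0.49, SE 0.11, adjusted p = 0.0290). Cyc1, the cytochrome c1 subunit, stood at 9.73, 10.16, 10.11 and 10.32 on PGISp A, C, E and G, against 10.75, 10.24, 10.67 and 10.50 on control B, D, F and H. PGISp G lay just above control D, and Cyc1 was 1.38-fold lower (log2 difference -0.46, SE 0.14, adjusted p = 0.0833). This call was lost when PGISp A, C or E or control B, F or H was left out, without a filter (adjusted p = 0.143) and with array position as a covariate (adjusted p = 0.113). The difference of Cyc1 was -0.29 without control B and F together (adjusted p = 0.511). The partner core protein Uqcrc2 showed the widest spread of the complex, since PGISp A was at 11.03 and PGISp G at 12.14, above all 4 control spines (11.54 to 12.10). Its difference of -0.35 was not called (adjusted p = 0.386). Uqcr10 and the other supernumerary subunits had differences between -0.30 and -0.16 and 0 of 4 were called.

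Complex IV transfers electrons to oxygen. Of 18 member genes, 15 were tested, 4 were called lower, and the median difference was -0.25. Cox5b, a subunit of the nuclear-encoded shell, had values of 12.37, 12.38, 12.39 and 12.57 on PGISp A, C, E and G, against 13.01, 12.91, 12.99 and 12.74 on control B, D, F and H. It had the smallest adjusted p of all members and was 1.40-fold lower without overlap (log2 difference -0.49, SE 0.08, adjusted p = 0.00858). Cox4i1, the common form of subunit 4, stood at 12.11, 12.11, 12.17 and 12.30 on PGISp A, C, E and G, against 12.57, 12.72, 12.48 and 12.36 on control B, D, F and H. It was 1.28-fold lower, again without overlap (log2 difference -0.36, SE 0.08, adjusted p = 0.0371). Cox5a also did not overlap between the groups, but PGISp A at 11.64 lay far below the other PGISp spines (12.12 to 12.32), and the gene was not called (log2 difference -0.37, SE 0.14, adjusted p = 0.156).

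Cox6c, a further subunit of the shell, averaged 12.46 ± 0.18 in PGISp spines and 12.36 ± 0.14 in control spines (SD, n = 4 each), the highest difference of any member (0.10, adjusted p = 0.609). Cox7c averaged 11.97 ± 0.18 in PGISp spines and 12.02 ± 0.11 in control spines, and Ndufa4, counted here as a complex IV subunit, averaged 12.35 ± 0.21 in PGISp spines and 12.50 ± 0.07 in control spines (SD, n = 4 each). Cox6b1, which lies on the side of cytochrome c, was not called on its brightest probe (log2 difference -0.30, SE 0.10, adjusted p = 0.11), whereas its second probe gave -0.42 (adjusted p = 0.0341, every probe tested separately). Cox6b2, a testis form, averaged 7.29 ± 0.14 in PGISp spines and 7.39 ± 0.11 in control spines (SD, n = 4 each).

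The 3 muscle isoforms of complex IV, Cox6a2, Cox7a1 and Cox8b, were compared with their ubiquitous partners. Cox7a1 and Cox8b are also made in brown fat. Of the muscle isoforms, 2 of 3 were called lower, with a median of -0.51, and of the ubiquitous partners, 0 of 3 were called, with a median of -0.19. Of all genes tested, 4.56% were called lower. Without control B and F, 0 genes of either group were called, and the medians were -0.41 for the muscle isoforms and -0.27 for their partners. Cox7a1 had values of 10.49, 10.42, 10.87 and 11.15 on PGISp A, C, E and G, against 11.77, 11.26, 11.76 and 11.47 on control B, D, F and H. It showed the largest fall of all members and was 1.78-fold lower without overlap (log2 difference -0.83, SE 0.17, adjusted p = 0.0228). Its partner Cox7a2 stood at 8.18, 7.71, 7.97 and 7.90 on PGISp A, C, E and G, against 7.99, 7.77, 7.85 and 8.10 on control B, D, F and H. These groups overlapped, with a difference of 0.01 (SE 0.11, adjusted p = 0.97).

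Cox8b had values of 12.02, 11.84, 12.03 and 12.17 on PGISp A, C, E and G, against 12.64, 12.36, 12.61 and 12.50 on control B, D, F and H. It was 1.42-fold lower without overlap (log2 difference -0.51, SE 0.09, adjusted p = 0.0113). Its partner Cox8a averaged 11.62 ± 0.14 in PGISp spines and 11.81 ± 0.10 in control spines (SD, n = 4 each) and was not called (log2 difference -0.19, SE 0.08, adjusted p = 0.22). Cox6a2 stood at 12.30, 12.43, 12.18 and 12.89 on PGISp A, C, E and G, against 13.10, 12.66, 13.01 and 12.67 on control B, D, F and H. PGISp G lay above control D and H, and the difference of -0.41 (SE 0.16) was not called (adjusted p = 0.153). Its partner Cox6a1 averaged 11.50 ± 0.10 in PGISp spines and 11.76 ± 0.22 in control spines (SD, n = 4 each, log2 difference -0.25, adjusted p = 0.187).

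**Figure D2:**
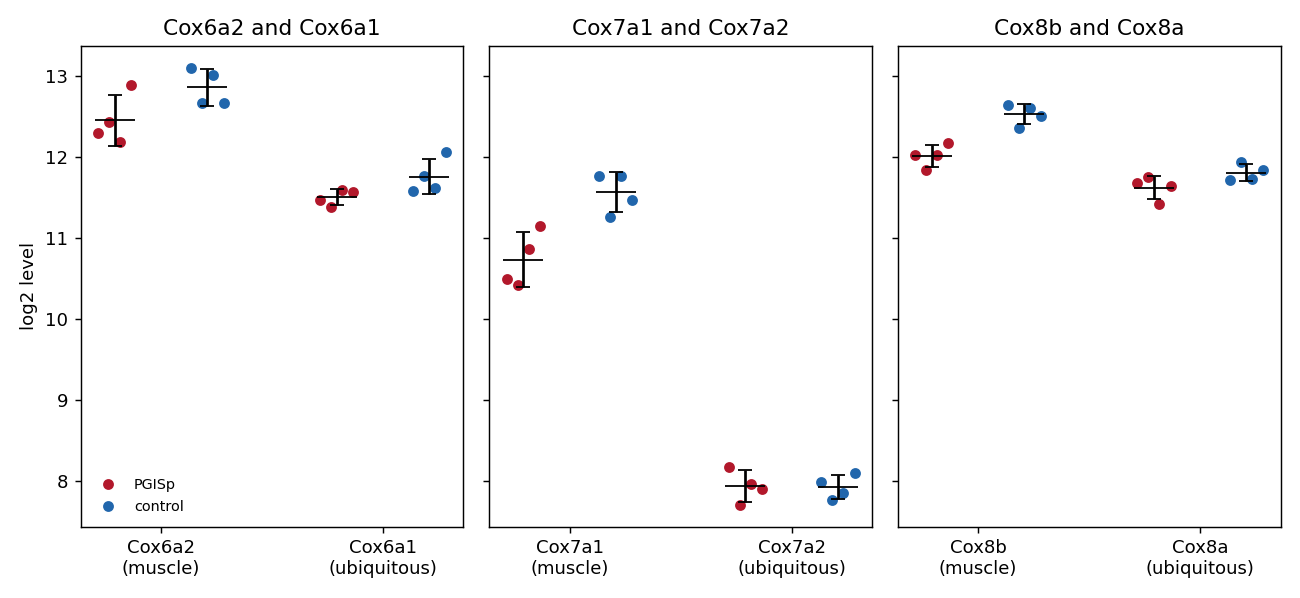
Log2 level of each muscle isoform of complex IV and its ubiquitous partner, with 1 point per spine, PGISp left of control, and the mean ± SD as bars (n = 4 each). PGISp and control points do not overlap for Cox7a1 and Cox8b and overlap for the other 4 genes, and levels of different genes come from different probes and are not compared.

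The ratio of a muscle isoform to its partner within each spine measured whether they changed unequally. The log2 ratio of Cox7a1 to Cox7a2 was 2.31, 2.71, 2.90 and 3.25 on PGISp A, C, E and G, against 3.78, 3.48, 3.91 and 3.36 on control B, D, F and H. Every PGISp spine lay below every control spine, and the ratio was lower by a log2 difference of -0.84 (SE 0.23, n = 4 each). The probe of Cox7a2 was dim, with a mean of 7.93 over the arrays, and no member under 8 was called, whereas those of Cox8a and Cox6a1 were bright, at 11.71 and 11.63. The two-sided exact permutation p for Cox7a1 over Cox7a2 was 0.0286, the smallest that 4 against 4 spines allow, and 0.0857 after Benjamini-Hochberg adjustment over the 3 pairs. The ratio of Cox8b to Cox8a averaged 0.39 ± 0.23 in PGISp spines and 0.72 ± 0.23 in control spines (SD, n = 4 each), with overlap (log2 difference -0.32, exact permutation p = 0.114, adjusted 0.171). The ratio of Cox6a2 to Cox6a1 averaged 0.95 ± 0.31 in PGISp spines and 1.10 ± 0.43 in control spines (SD, n = 4 each, log2 difference -0.16, exact permutation p = 0.543, adjusted 0.543). No pair passed 0.05 after adjustment, the level set for the pairs, whereas genes were called under 0.1. With 3 pairs, 1 pair alone at the smallest possible p comes to 0.0857, so that it could not pass 0.05 by itself. Without control B and F the differences were -0.63 for Cox7a1 over Cox7a2, -0.14 for Cox8b over Cox8a and 0.19 for Cox6a2 over Cox6a1, with exact p of 0.133, 0.467 and 0.533, where 4 against 2 spines cannot go below 0.0667.

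The promoters of the isoform pairs that contrast most are shown so that the muscle and ubiquitous genes can be set side by side. Each is the 250 bases before the gene's start in RefSeq (build GRCm38.p6), and capitals mark every match to the motifs searched. Cox7a1 lies at chr7:30183921-30184170 on the plus strand, and Cox7a2 at chr9:79759854-79760103, Cox8b at chr7:140900447-140900696 and Cox8a at chr19:7217617-7217866 on the minus strand.
Cox7a1: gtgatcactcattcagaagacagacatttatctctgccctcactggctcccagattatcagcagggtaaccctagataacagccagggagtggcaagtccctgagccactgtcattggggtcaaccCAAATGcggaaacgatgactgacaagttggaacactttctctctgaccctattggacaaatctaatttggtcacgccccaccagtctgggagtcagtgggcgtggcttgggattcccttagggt
Cox7a2: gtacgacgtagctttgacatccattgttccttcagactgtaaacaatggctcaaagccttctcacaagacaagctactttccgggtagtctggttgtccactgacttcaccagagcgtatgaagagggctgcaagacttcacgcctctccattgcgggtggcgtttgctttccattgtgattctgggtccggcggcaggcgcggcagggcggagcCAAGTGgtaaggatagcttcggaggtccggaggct
Cox8b: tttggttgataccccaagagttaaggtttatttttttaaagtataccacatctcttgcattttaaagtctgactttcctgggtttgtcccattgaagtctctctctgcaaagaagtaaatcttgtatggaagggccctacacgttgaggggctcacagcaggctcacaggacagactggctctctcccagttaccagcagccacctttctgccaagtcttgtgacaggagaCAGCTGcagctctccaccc
Cox8a: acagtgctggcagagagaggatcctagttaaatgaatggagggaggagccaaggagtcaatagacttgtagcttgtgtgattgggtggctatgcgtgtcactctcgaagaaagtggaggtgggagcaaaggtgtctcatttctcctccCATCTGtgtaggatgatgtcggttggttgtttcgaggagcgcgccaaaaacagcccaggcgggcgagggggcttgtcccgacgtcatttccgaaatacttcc

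Searched on both strands were the E-box CANNTG, which muscle regulatory factors of the MyoD family and many other factors bind, AAGGTCA for oestrogen-related receptors, CATGCGC for the core of the NRF1 site, and CCGGAAG for GABP and other ETS factors. Each of the 4 promoters held 1 E-box, CAAATG in Cox7a1, CAAGTG in Cox7a2, CAGCTG in Cox8b and CATCTG in Cox8a, and no match to the other motifs in this window. No matches overlapped. RefSeq promoters were matched for 70 of the 86 member genes, giving 75 promoters, and were set against all 32851 mouse promoters of this length. The E-box stood in 64% of the member promoters, against 66.2% of all promoters, the oestrogen-related receptor motif in 5.33%, against 4.08% of all promoters, the NRF1 core in 13.3%, against 3.24%, and the GABP motif in 17.3%, against 6.91%. The 22 promoters of members called lower held the E-box in 59.1%, the oestrogen-related receptor motif in 0%, the NRF1 core in 13.6% and the GABP motif in 9.09%. The 50 promoters of members tested and not called held them in 66%, 8%, 12% and 22%. The differences between these shares were not tested. These matches describe letters and were not tested as sites.

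Complex V makes ATP. Of 16 member genes, 15 were tested, 5 were called lower, and the median difference was -0.25. Atp5b, the catalytic beta subunit of the head, had values of 12.99, 13.44, 13.01 and 13.36 on PGISp A, C, E and G, against 13.75, 13.46, 13.87 and 13.86 on control B, D, F and H. It was 1.45-fold lower without overlap, although PGISp C lay close to control D (log2 difference -0.53, SE 0.13, adjusted p = 0.0383), and the call was lost without PGISp E or without control F. Atp5d, the delta subunit of the rotating central stalk, stood at 10.01, 10.19, 10.37 and 10.16 on PGISp A, C, E and G, against 10.85, 10.49, 10.68 and 10.65 on control B, D, F and H. It was 1.40-fold lower without overlap (log2 difference -0.48, SE 0.10, adjusted p = 0.0193). Atp5h, of the peripheral stalk, averaged 10.42 ± 0.20 in PGISp spines and 10.89 ± 0.14 in control spines (SD, n = 4 each, log2 difference -0.47, adjusted p = 0.0324), without overlap. Atp5j2, of the membrane part, fell by 0.30 (adjusted p = 0.0652), a call that was lost when PGISp A, C or E or control B, F or H was left out.

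The c ring, which turns as protons pass, is encoded by Atp5g1, Atp5g2 and Atp5g3, which give the same mature protein. Atp5g1 had values of 11.16, 11.40, 11.39 and 11.76 on PGISp A, C, E and G, against 12.09, 11.74, 12.09 and 11.84 on control B, D, F and H. It was 1.42-fold lower (log2 difference -0.51, SE 0.13, adjusted p = 0.0465), although PGISp G lay just above control D, and it was not called without PGISp E or without control B or F. Atp5g2 did not overlap between the groups, with values of 9.45, 9.05, 9.39 and 9.43 on PGISp A, C, E and G, against 9.58, 9.51, 9.69 and 9.55 on control B, D, F and H, but was not called (log2 difference -0.25, SE 0.09, adjusted p = 0.147). Atp5g3 averaged 13.10 ± 0.24 in PGISp spines and 13.39 ± 0.13 in control spines (SD, n = 4 each, log2 difference -0.29, adjusted p = 0.17). The differences among the 3 genes were not tested. Atp5a1, the alpha subunit, was not called (log2 difference -0.34, SE 0.17, adjusted p = 0.27), and Atp5mpl, a small membrane subunit, was at 12.49 ± 0.11 in PGISp spines and 12.43 ± 0.13 in control spines (SD, n = 4 each).

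Of the 7 genes that match the rule but encode no subunit, 0 were called, with a median of -0.15. Cox7a2l, which helps to join complexes III and IV, differed by -0.15 (SE 0.13, adjusted p = 0.56). Ndufaf7 did not overlap, at 7.13 ± 0.04 in PGISp spines and 7.28 ± 0.03 in control spines (SD, n = 4 each), with an adjusted p of 0.136. Ndufaf3 was one of the members above 0 (difference 0.09, adjusted p = 0.431).

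**Figure D3:**
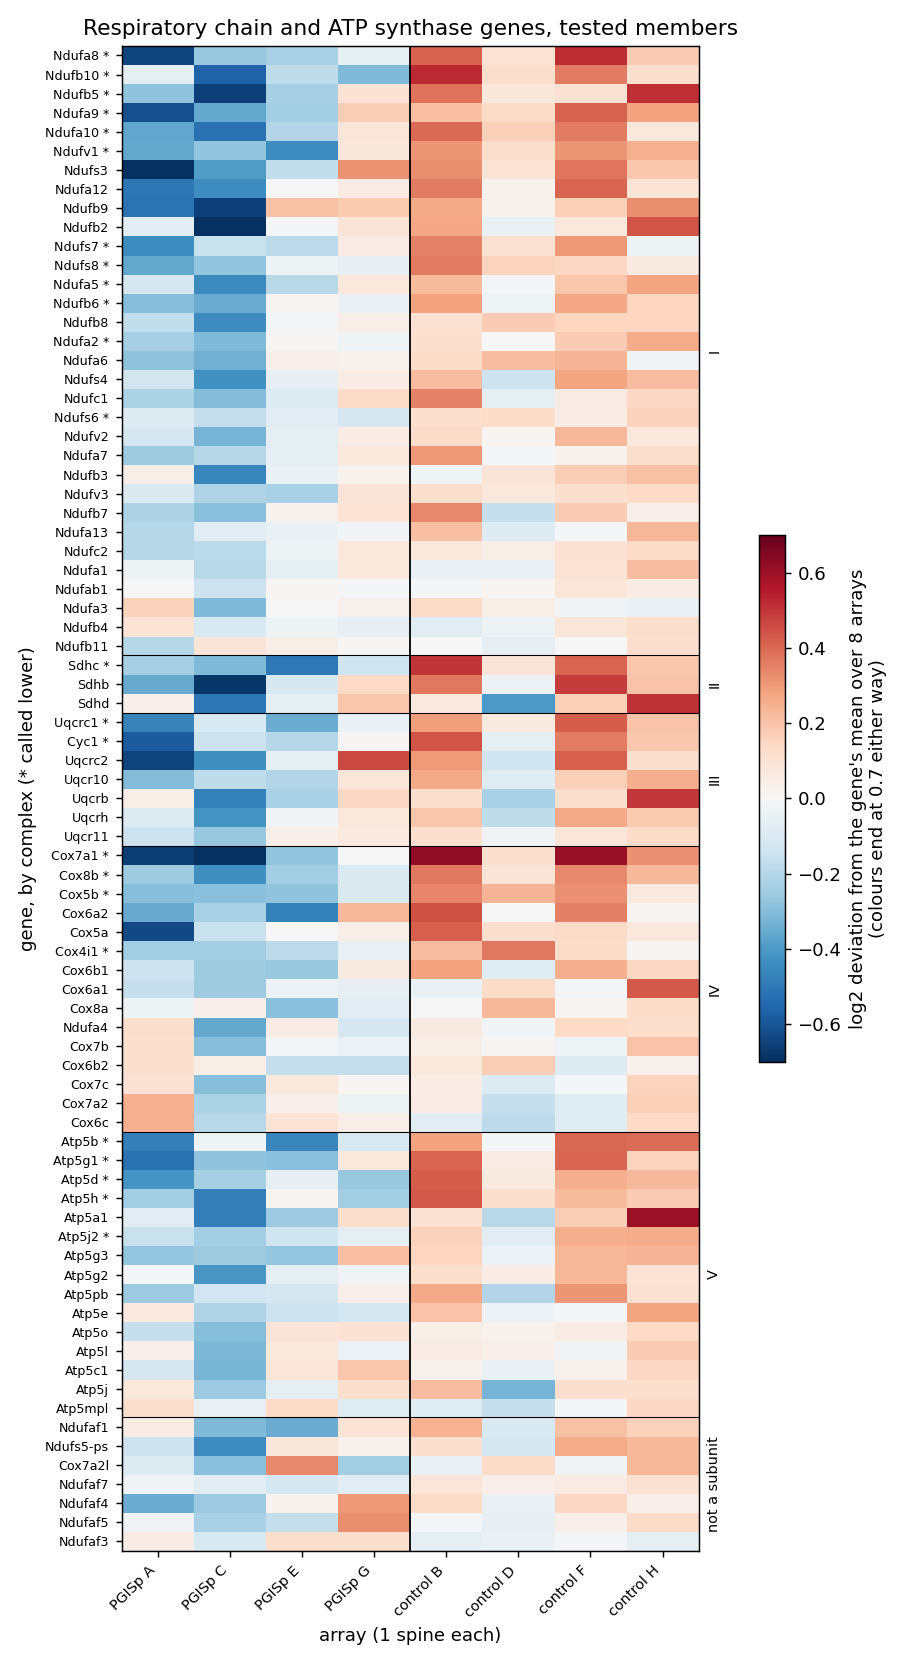
Log2 deviation of each of the 79 genes tested from its own mean over the 8 arrays, in rows by complex and in columns by array, PGISp left of control, with an asterisk at the genes called lower. PGISp A and C are the lowest arrays for most rows, PGISp G and control D have medians of 0.04 and 0.00, and control B, F and H are the highest for most rows.

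The 8 spines were not equally high or low. PGISp C was the lowest array for 45 of the 79 members and PGISp A for 23, while control H was the highest for 27, control B for 23 and control F for 16. The median deviation of the 79 members from each gene's mean was -0.16, -0.29, -0.07 and 0.04 on PGISp A, C, E and G, against 0.19, 0.00, 0.16 and 0.16 on control B, D, F and H. PGISp G thus lay just above control D. The complex IV median was -0.15, -0.25, -0.17 and -0.04 on PGISp A, C, E and G, against 0.07, 0.09, 0.13 and 0.14 on control B, D, F and H. This median separated the groups fully, whereas those of complexes I, II, III and V overlapped, with PGISp G above control D in each. In complexes I and V the overlap was slight, at 0.05 on PGISp G against 0.03 on control D and -0.02 against -0.04. Full separation was not particular to complex IV. The median of the 30 assembly factors and cofactor enzymes described below also separated the groups, at 0.01 on PGISp G against 0.02 on control D. Differences between complexes were not tested. Leaving out PGISp G raised the number of members called lower to 40, and leaving out control F reduced it to 11. The whole table moved the same way: 7.76% of all genes were called lower without PGISp G and 1.48% without control F, against 4.56% with all arrays.

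**Figure D4:**
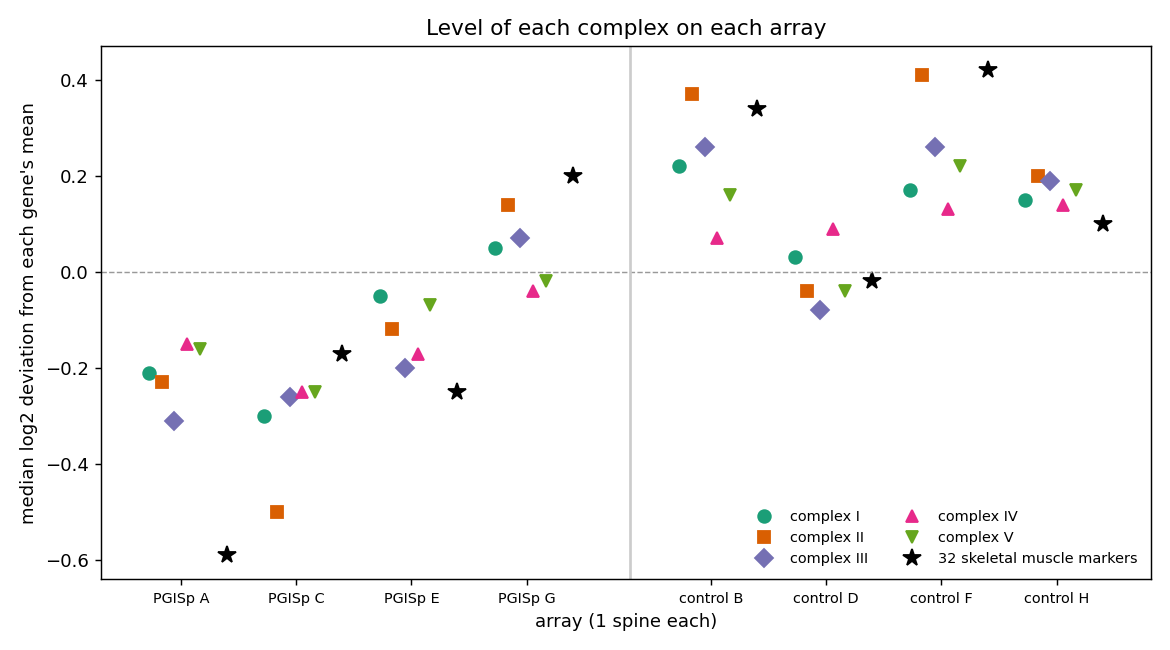
Median log2 deviation from each gene's mean over the 8 arrays, for the tested genes of complexes I to V and for 32 skeletal muscle markers, with 1 column of points per array, PGISp left of control. The complex IV triangles lie below 0 on every PGISp array and above 0 on every control array, and the muscle stars run from -0.59 on PGISp A to 0.42 on control F.

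Markers of skeletal muscle were read from 3 lists. Of 12 fast fibre markers, 0 were called, with a median difference of -0.39. Of 11 slow fibre markers tested, 3 were called lower and Tpm3, a tropomyosin, was called higher, with a median of -0.32. Of 9 markers of muscle in general, 2 were called lower, with a median of -0.50. The genes called lower were Mb, Myl2, Myoz2, Tcap and Des, or 15.6% of the 32 markers, against 4.56% of all genes, and 31 of the 32 had a difference below 0. Tcap was not called without PGISp E or control B or F, nor Des without PGISp A or E or control B or F. Without control B and F together, 0 muscle markers were called, 29 of 32 had a difference below 0, and the medians were -0.21, -0.35 and -0.21 for fast fibres, slow fibres and muscle in general. Their median deviation was -0.59, -0.17, -0.25 and 0.20 on PGISp A, C, E and G, against 0.34, -0.02, 0.42 and 0.10 on control B, D, F and H. PGISp G stood above control D and H. On the linear scale the summed signal of the fast fibre markers was 83200 to 138000 in PGISp spines and 118000 to 150000 in control spines, and that of the slow fibre markers was 13900 to 21300 in PGISp spines and 23900 to 27400 in control spines. The summed signal of the shared muscle markers was 33700 to 52700 in PGISp spines and 46900 to 62500 in control spines. Control D and H alone spanned 118000 to 135000 for the fast fibre, 23900 to 25600 for the slow fibre and 46900 to 47300 for the shared markers. Myoglobin (Mb) averaged 12.40 ± 0.30 in PGISp spines and 13.28 ± 0.21 in control spines (SD, n = 4 each), a 1.84-fold fall (adjusted p = 0.0114, and 0.137 without control B and F). The part of muscle content in the result was not tested.

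Of 6 brown fat markers, 3 were tested and 2 were called lower, while 4.56% of all genes were called lower. Cidea, a lipid droplet protein of brown fat, had values of 8.82, 8.54, 9.57 and 9.54 on PGISp A, C, E and G, against 9.68, 9.73, 10.45 and 10.42 on control B, D, F and H (1.93-fold lower, adjusted p = 0.0648). Cpt1b, which muscle also makes, was 1.75-fold lower (adjusted p = 0.041). Ucp1, the uncoupling protein that defines brown fat, averaged 9.88 ± 0.68 in PGISp spines and 10.36 ± 0.45 in control spines (SD, n = 4 each) and was not called (adjusted p = 0.424), and Elovl3, Dio2 and Prdm16 were not above background on most arrays. The summed signal of the brown fat markers was 1810 to 3430 in PGISp spines and 2680 to 4380 in control spines. Of 5 white fat markers tested, 0 were called, with a median of -0.22. Cidea was not called without PGISp A or C or control F or H, nor Cpt1b without PGISp E or control B or F. Without control B and F together, 0 of 3 brown fat markers were called, with a median of -0.61, against -0.80 with all arrays, and of the white fat markers Adipoq, the hormone adiponectin, was called lower (log2 difference -0.63, adjusted p = 0.0899).

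Among markers of other cells, 9 of 12 neutrophil, 4 of 7 macrophage and 4 of 9 bone matrix genes were called higher, and 0 of 6 erythroid genes were called. Of all genes tested, 6.25% were called higher. Of 4 cartilage genes tested, Cytl1 was called lower. The others, Col2a1, Comp and Acan, were not called (log2 differences 0.45, 0.39 and -0.08), and the median of the list was 0.15. Without control B and F, 8 of 12 neutrophil, 2 of 7 macrophage and 1 of 9 bone matrix genes were called higher, against 1.28% of all genes, with medians of 0.69, 0.55 and 0.42, Cytl1 was still called lower, and 0 erythroid genes were called. The bone matrix genes Col1a1 and Ibsp were above background on all 8 arrays. The summed signal of the neutrophil markers was 101000 to 114000 in PGISp spines and 73700 to 86700 in control spines. That of the macrophage markers was 10500 to 12800 in PGISp spines and 5840 to 7720 in control spines, and that of the bone matrix genes was 12900 to 25700 in PGISp spines and 9110 to 13000 in control spines. The part of these cells in the result was not tested.

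Genes that serve the chain but lie outside the rule were read from lists. Of 30 assembly factors and cofactor enzymes tested, 8 were called lower and 0 higher, with a median of -0.17. The share called lower was 26.7%, against 4.56% of all genes. Cox10, which makes haem O for complex IV, fell by 0.71 (adjusted p = 0.0208), and Ecsit, which helps to assemble complex I, fell by 0.66 (adjusted p = 0.0127). Uqcc1, for complex III, and Atpaf2, for the head of complex V, fell by 0.43 and 0.34. Of 14 genes for electron carriers and ubiquinone synthesis, 4 were lower, or 28.6%, and 0 higher, with a median of -0.36. These were Etfa and Etfb, which encode the electron transfer flavoprotein of fatty acid oxidation (log2 differences -0.62 and -0.46), and Coq7 and Coq6, hydroxylases of ubiquinone synthesis (-0.47 and -0.44). Cytochrome c itself (Cycs) differed by -0.01. Of the called genes named here, Uqcc1, Atpaf2 and Etfa each lost the call in 5 or 6 of the 8 fits that left out 1 spine, those without PGISp A, C or E and control F or H among them, and the others kept it in all 8. Without control B and F together, 0 genes of these lists were called, and the medians were -0.15 for assembly factors and cofactor enzymes and -0.25 for electron carriers and ubiquinone synthesis.

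With 4.56% of all genes called lower, 1 of 14 nuclear regulators and factors for mitochondrial DNA, or 7.14%, was called lower. This was Perm1, a regulator of oxidative genes in muscle, which had values of 8.55, 8.77, 8.51 and 9.39 on PGISp A, C, E and G, against 9.85, 9.03, 9.91 and 9.42 on control B, D, F and H (log2 difference -0.75, SE 0.23, adjusted p = 0.0864). PGISp G overlapped with control D. The call of Perm1 was lost when PGISp A, C or E or control B, F or H was left out, and without control B and F together 0 regulators were called, with a median of -0.06, against -0.08 with all arrays. Ppargc1a, the coactivator of mitochondrial biogenesis, averaged 7.31 ± 0.24 in PGISp spines and 7.31 ± 0.16 in control spines (SD, n = 4 each). Esrra, an oestrogen-related receptor, and Ppargc1b had differences of -0.40 and -0.34 and were not called (adjusted p = 0.112 for each). Nrf1, Tfam and Gabpa lay between -0.09 and -0.01. Of 9 genes for ATP and phosphate transport and creatine kinases, 1 was called lower, or 11.1%. Their median was -0.28, and -0.23 without control B and F. The called gene was Vdac3, an outer membrane channel (log2 difference -0.44, adjusted p = 0.0915). Its call was lost in 6 of the 8 fits that left out 1 spine and without control B and F. The largest difference, that of the mitochondrial creatine kinase of muscle Ckmt2 (-0.97), was not called (SE 0.34, adjusted p = 0.124).

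The members were also set against other genes of the same signal. With a mean log2 value under 8, 0 of 10 members were called lower, against 2.38% of other genes. Between 8 and 10, 2 of 12 members were called, against 7.38% of other genes. Between 10 and 12, 16 of 38 members (42.1%) were called, against 9.06% of other genes, and above 12, 6 of 19 members (31.6%), against 7.56% of other genes. The median difference of the members was -0.08 in the dimmest group and -0.31, the lowest, between 10 and 12.

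**Figure D5:**
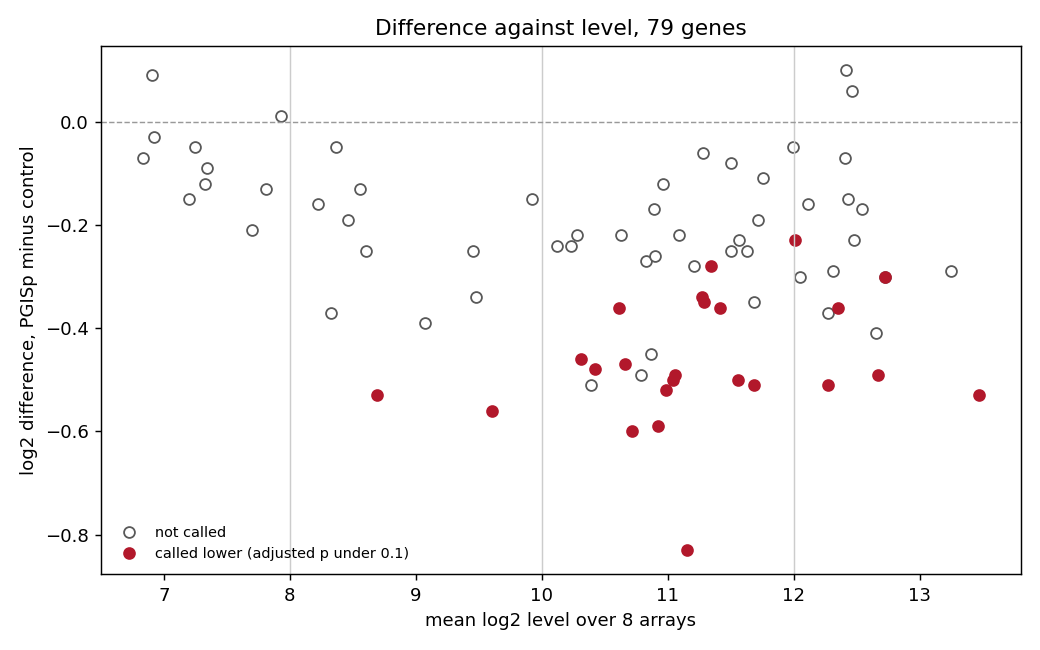
Log2 difference between PGISp and control spines against the mean log2 level over the 8 arrays for the 79 genes tested, with filled points for genes called lower and vertical lines at 8, 10 and 12. No gene with a level under 8 is called, and the differences there lie between -0.21 and 0.09.

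Probes of a gene mostly had differences of the same sign, but 89 of all 94 member probes tested were below 0. Sizes and calls could differ between probes. With every probe tested separately, Atp5j differed by -0.07 on its brightest probe (adjusted p = 0.803) and by -0.36 on a second (adjusted p = 0.0468). Of 16 member genes with several probes, 12 had several that were tested, and in 11 of these all tested probes had the same sign. When every probe was tested separately, 29 of 94 member probes were called lower and 0 were called higher. When each spine was left out in turn, 11 of the 24 members called lower were called in all 8 fits, namely Sdhc, Cox4i1, Cox5b, Cox7a1, Cox8b, Ndufa8, Ndufs6, Ndufv1, Uqcrc1, Atp5d and Atp5h, and the other 13 lost the call in 1 to 6 of them. Without control B and F together, the differences of these 11 genes were -0.63 for Cox7a1, -0.44 for Sdhc and Ndufa8, -0.43 for Ndufv1, -0.41 for Cox8b, -0.40 for Cox5b, -0.38 for Uqcrc1, Atp5d and Atp5h, -0.37 for Cox4i1 and -0.26 for Ndufs6, and their adjusted p lay between 0.122 and 0.274.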

How the data were processed

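Per the labels and the methods, RNA from 8 spines was hybridised to MouseRef-8 arrays on 1 BeadChip. The deposited log2 values were made by the authors with variance stabilising transformation and robust spline normalisation in lumi, and BeadStudio is named in the submitters' processing notes. The sorted values of any 2 arrays lay at most 0.005 apart, so that a shift of all genes on an array would not show. A second table of signals and detection values (16 columns) was not used, since its columns could not be assigned to samples by name.

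Probes were kept where their mean over the arrays exceeded the median of an array, a gene was read from its brightest probe, and limma (lmFit, eBayes) with Benjamini-Hochberg adjustment over 9609 genes compared the groups at an adjusted p under 0.1. Isoform ratios were compared by a two-sided exact permutation test. Symbols came from the platform annotation, and were updated by gene identifier for 23960 of 23976 probes. The rule, the gene lists and the tests were chosen with earlier results of these data known. Named were the Sdh genes, the isoform families, up to 3 genes of each complex with the smallest adjusted p, up to 2 with the largest change in each direction, and up to 4 called genes of each list. Genes named beyond that rule were chosen after their values were seen. Also tried were other filters, thresholds and tests, other ways to read probes, a variance trend, array weights, position and centring, and leaving out arrays. The fit was tested on simulated data. Mitochondrially encoded subunits were not analysed here. R 4.3.3, limma 3.58.1, Python 3.11.15 and matplotlib 3.10.9 were used.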

Additional observations from a re-analysis of the deposited data

Results flagged for a closer look

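Among 78 groups of 4 spines looked at, 3 held a spine far from the other 3. By chance about 1 in 20 would, so that the number found is no more than chance gives. Atp5g2 was at 9.05 on PGISp C, while the nearest other PGISp spine was at 9.39. Atp5g3 was at 13.46 on PGISp G, while the nearest other was at 13.00. Cox5b was at 12.57 on PGISp G, while the nearest other was at 12.39, still below the lowest control spine.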

How the results depend on the processing

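No member was called higher under any setting. The number called lower was 24 and lay between 18 and 26 without a filter, with a background filter, with the mean of a gene's probes, with a variance trend, with array weights, with position as a covariate and with arrays centred on the median, while testing each probe called 29 of 94 member probes. It was 15 at an adjusted p under 0.05 (577 genes in all, against 1039) and 6 with the methods' t-test after Benjamini-Hochberg adjustment (411 genes in all), where the methods' permutation step was not run. Leaving out 1 spine gave 11 (without control F) to 40 (without PGISp G) members, with 14 without PGISp A, 15 without PGISp C and 13 without control B, and 405 to 1564 genes in all. Without control B and F, 0 members and 163 genes were called. Other pairs of controls were left out after the values were seen. Without B and D 8 members and 342 genes were called, without B and H 1 and 188, without D and F 2 and 115, without D and H 20 and 566, and without F and H 2 and 96. These fits hold fewer control spines.

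The Cox7a1 to Cox7a2 difference ranged from -0.998 to -0.683 when 1 spine was left out, with an exact permutation p of 0.0571 without any 1 control spine, and was -0.63 (p = 0.133) without control B and F. The Cox6a2 to Cox6a1 difference was 0.19 without B and F. Leaving out 1 spine gave Cox7a2 a difference of -0.069 (without PGISp A) to 0.086 (without PGISp C), and it was also below 0 without control D (-0.040) or control F (-0.016). No paired analysis was possible because the labels give no replicate numbers, and the spines were numbered within each group only in the order of deposit.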
